A study of Mus musculus with 6 samples.

Results

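The protein-coding genes of the cytosolic ribosome were followed in mouse first mandibular molars at postnatal day 4. Members were chosen by name: every gene of the deposited table whose symbol is Rpl or Rps with a number and at most 1 of the letters a, x, y or l, together with Rplp0, Rplp1, Rplp2 and Rpsa, provided it reached 1 FPKM in at least 3 of the 6 libraries. FPKM is a count of sequenced fragments scaled to transcript length and to the size of the library. Of the 17582 genes in the table, 81 matched by name and 78 of these reached the level, among 11934 genes that reached it in all. The rule used no difference between the groups. Rpl39l was the member nearest the limit, at 2.25, 1.82 and 1.20 FPKM in knockout libraries 1, 2 and 3 and at 2.10, 1.96 and 2.40 FPKM in control libraries 1, 2 and 3. The 3 genes left out were Rpl32l, at 0.11 to 0.61 FPKM, Rpl3l, at 0.32 to 0.49 FPKM, and Rpl10l, at 0 to 0.05 FPKM.

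The 6 libraries came from C57BL/6 mice and fall into 2 groups of 3. The knockout group was K14-Cre; Wnt10aflox/flox, in which a keratin 14 promoter drives the recombinase in epithelium. The littermate control group was Wnt10aflox/flox without Cre, so both groups carried the floxed alleles. Whole molars were sequenced, so epithelial and mesenchymal transcripts are measured together, and fewer cells of a type and less RNA per cell cannot be told apart. Whether molars of several animals were pooled is not stated in the labels, and the p-values cover no more than the spread between these samples, which may be technical. Wnt10a, the targeted gene and a secreted Wnt ligand, stood at 19.39, 19.94 and 18.07 FPKM in the knockout libraries and at 33.61, 36.59 and 31.68 FPKM in the controls. The groups did not overlap, and Wnt10a was the 1 gene of 11934 past an adjusted p of 0.05 by limma-trend (adjusted p = 0.00609). Ameloblast and odontoblast transcripts were present in all 6 libraries, with 5 of 5 and 4 of 4 markers at 1 FPKM or more. The estimated depth, read from how low values step, was between 17850000 and 18570000 reads per library.

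Each ribosome is built from a small subunit, which reads the messenger RNA, and a large subunit, which joins amino acids and releases the growing chain through a tunnel. The messenger RNAs of most ribosomal proteins are short and abundant, and many begin with a C followed by a run of pyrimidines, the terminal oligopyrimidine tract. Through that tract the growth regulator mTOR sets the translation of the whole family together. Cells that secrete much protein, as ameloblasts and odontoblasts do while enamel and dentin are laid down, depend on a large supply of ribosomes.

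The start regions of 6 members are shown to let the tract be seen. Of these, 5 were picked from the members whose annotated start opens with it. Rps27l was added as a paralog whose annotated start does not open with it. No relation between the tract and the values was tested. Each line runs from 30 bases before to 20 bases after the annotated transcription start, on the gene's own strand, in GRCm38.p6 from RefSeq. Capitals mark the run of C and T that opens with a C at the start itself. Rps27, which encodes a small subunit protein with a zinc finger, starts within chr3:90213629-90213678 on the minus strand. Rplp2 encodes a protein of the ribosomal stalk and starts within chr7:141447621-141447670 on the plus strand. Rpl38 starts within chr11:114668550-114668599 (plus), Rps6, the substrate of the S6 kinases, within chr4:86857348-86857397 (minus), and Rpl15 within chr14:18270967-18271016 (minus). Rps27l, a paralog of Rps27, starts within chr9:66946056-66946105 (plus), and no such run opens at its annotated start. The run cctct opens at the very next base, so Rps27l lacks the run only at the exact annotated start.
Rps27: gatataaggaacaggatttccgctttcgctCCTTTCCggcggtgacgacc
Rplp2: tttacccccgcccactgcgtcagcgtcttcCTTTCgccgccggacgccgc
Rpl38: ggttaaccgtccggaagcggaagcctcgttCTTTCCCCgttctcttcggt
Rps6: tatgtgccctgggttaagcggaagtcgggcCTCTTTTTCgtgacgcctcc
Rpl15: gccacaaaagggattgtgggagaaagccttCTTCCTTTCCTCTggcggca
Rps27l: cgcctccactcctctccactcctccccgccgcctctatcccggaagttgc

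The RefSeq table held 69 start windows for 58 of the 78 members. A C at the annotated start followed by at least 4 bases that were each C or T stood in 13 member windows (18.8%), against 2.51% of all 32851 windows. Within 10 bases of the start such a run opened in 55.1% of member windows and in 30.72% of all windows. Over the whole 300-base window, CTCTTTC lay on the gene's strand in 21.7% of member windows and 3.99% of all, and on either strand in 29.0% and 8.16%. CCGGAAG, a core read by ETS factors, lay on either strand in 37.7% of member windows and 8.86% of all. The letters of CTCTTTC can overlap the pyrimidine run, so these counts are not independent. They describe the windows and locate no bound site.

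Ribosomal protein transcripts were abundant and of similar level. On the FPKM scale, which divides by length, the mean over the 6 libraries had a median of 657.2 over members, and 49 of the 78 lay between 500 and 1000 FPKM. Rpl41, which encodes the smallest protein of the ribosome, was the most abundant, at 2494.01, 2411.24 and 2036.70 FPKM in the knockouts and 1936.41, 2120.23 and 1986.20 FPKM in the controls. Knockouts 1 and 2 held more than any control, and knockout 3 lay within the control values. Rplp1 and Rps12 came next, with means over all libraries of 1565.35 and 1345.37 FPKM. As a share of reads rebuilt from FPKM and length, the members took 4.395%, 4.093% and 3.688% in knockouts 1, 2 and 3 and 3.621%, 3.773% and 3.711% in controls 1, 2 and 3. Knockout 3 again lay within the controls.

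The least abundant members by FPKM were of different kinds. Rpl39l, which in mice is known mainly from the testis, had a mean of 1.96 FPKM, whereas its paralog Rpl39, a protein of the exit tunnel, had a mean of 566.26 FPKM. Rps27l had a mean of 66.6 FPKM and its paralog Rps27 one of 854.06 FPKM. Rps15a stood at 50.73 FPKM, but the table lists its longest transcript at 5125 bases, against a coding length of 390 bases in GENCODE. FPKM falls as the listed length grows, and by rebuilt reads Rps15a ranked 67 of 78 in place of 77. Rps20 (listed at 3446 bases, coding length 357) ranked 74 by FPKM and 40 by rebuilt reads. Rescaled to coding length, the ratio of the upper to the lower quartile of the members' levels was 1.47, against 1.73 on the deposited FPKM scale. By this ratio the levels within the family lay closer per coding base than per listed base. The extremes did not all draw in: Rpl41, with a coding length of 75 bases, went from 2164.13 to 12955.9 FPKM.

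**Figure D1:**
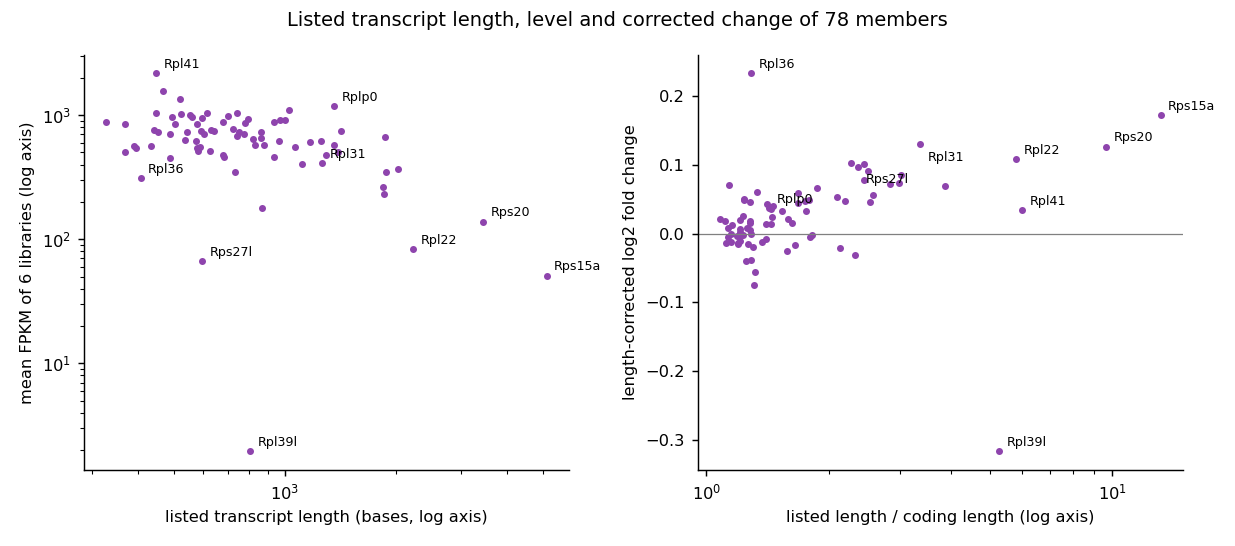
The left panel plots each member's mean FPKM over the 6 libraries (log axis) against its listed transcript length (log axis). The right panel plots the length-corrected log2 fold change against the ratio of listed to coding length (log axis). Rps15a, Rps20 and Rpl22 combine long listed transcripts with low FPKM, and they lie above 0 in the right panel.

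The comparison of knockout with control asks whether the supply of ribosomal protein transcripts differed when Wnt10a was targeted in the epithelium. Values of 77 of the 78 members (98.7%) were higher on average in the knockout, where 48.2% of all genes tested lay above 0, but none of the members passed the test. The median log2 fold change of the members was 0.135 (quartiles 0.111 and 0.16), against -0.005 over all 11934 genes tested. These folds are on the log2(FPKM + 1) scale, which hardly compresses genes as abundant as the members other than Rpl39l. By limma-trend, 0 of 78 members passed an adjusted p of 0.05, and the share of all genes called higher was 0% and lower 0.00838%. At an unadjusted p under 0.05, 13 members were higher and 0 lower, against 2.99% and 2.71% of all genes. Limma-voom on rebuilt reads also gave 0 calls, with 15 members under that p, where the share of all genes was not counted. The 95% interval included 0 for 65 members, and for all 78 it stayed under a 1.5-fold increase. Median values were alike in the large subunit (47 members, 0.134) and the small subunit (31 members, 0.138).

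Knockouts 1 and 2 carried the difference. As a deviation from each gene's mean on the log2 scale, the members' median was 0.195 in knockout 1, 0.082 in knockout 2 and -0.068 in knockout 3. The controls stood at -0.101, -0.036 and -0.064, so knockout 3 lay among them. Knockout 1 was the highest of the 6 libraries for 76 members, and knockouts 1 and 2 each lay above every control for 77. Knockout 3 lay above every control for 10 members, within the control range for 49 and below every control for 19. The groups therefore did not overlap, with the knockout higher, for 10 members (12.8%), against 4.80% of all genes tested, and with the knockout lower for 0 members, against 5.35%. Among these were Rpl27a, Rpl29, Rpl31, Rpl36, Rpl36a, Rplp2, Rps15, Rps27 and Rps27l. The tested genes had a longer median length than the members, so 4.80% is not a background matched for length. Of genes listed at 500 to 750 bases, 7.1% of members and 19.3% of other genes had the knockouts above all controls. From 750 to 1000 bases 0% of members and 10.9% of other genes did so. The members' share was above that of other genes up to 500 and from 1000 to 1500 bases, and below it in the longer classes. Without knockout 3, 73 members had an unadjusted p under 0.05 and the median was 0.212, against 0.024 over all genes tested. Without knockout 1 there were 2 higher and 1 lower, and the median was 0.075. Leaving out knockout 2 or control 1, 2 or 3 gave 3, 1, 5 and 7 members higher at that p. The share of all genes at that p was not counted for these fits, so the counts have no background beside them.

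**Figure D2:**
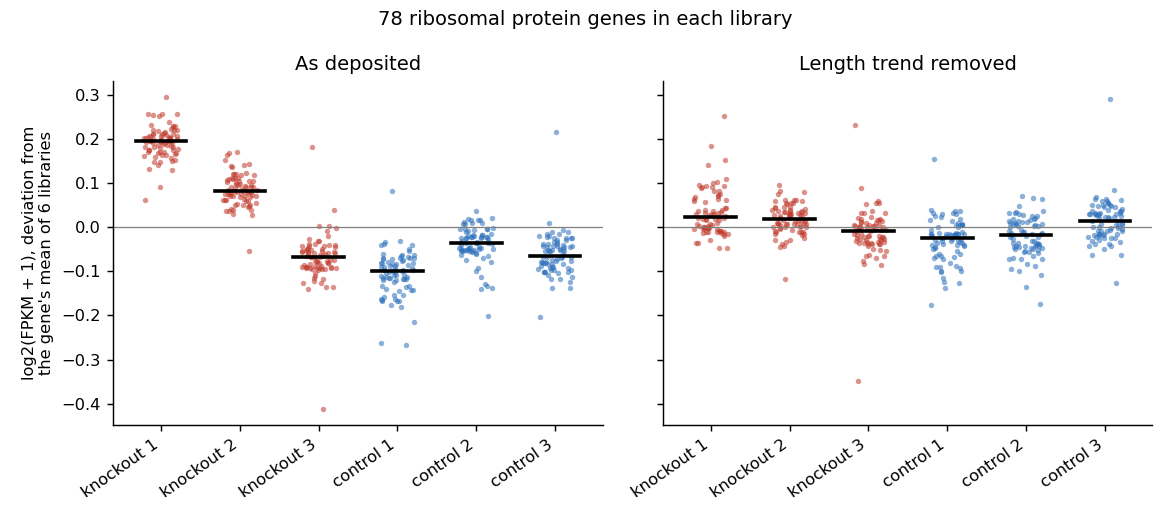
Each point is 1 of the 78 members in 1 library, as the deviation of log2(FPKM + 1) from the gene's mean over the 6 libraries, and black bars are medians. On the left, as deposited, knockouts 1 and 2 stand above the other 4 libraries with medians of 0.195 and 0.082. On the right, after removal of each library's trend with transcript length, all 6 medians lie between -0.024 and 0.023.

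Among genes that are not members, the difference between the groups ran with transcript length, and short genes of both kinds had similar values. The members had a median listed length of 714 bases, against 2911 over the tested genes, and 59 of them were shorter than 1000 bases. The median log2 fold change of non-member genes was 0.15 for 72 genes up to 500 bases, 0.119 for 270 genes of 500 to 750 bases and 0.09 for 395 genes of 750 to 1000 bases. It was 0.013 for 2725 genes of 2000 to 3000 bases and -0.065 for 2144 genes over 5000 bases. Members of the same 3 short classes, 15, 28 and 16 genes, had medians of 0.181, 0.131 and 0.119. Among the 78 members, too, the fold change fell with listed length (rank correlation -0.5), but longer members lay above other genes of their class. The 11 members of 1000 to 1500 bases had a median of 0.126, against 0.072 for other genes. The 4 of 1500 to 2000 bases had one of 0.1, against 0.038. The 2 members of 2000 to 3000 bases had a median of 0.134, and the single members of 3000 to 5000 and over 5000 bases, Rps20 and Rps15a, stood at 0.11 and 0.13, where other genes had -0.026 and -0.065. The libraries differed in slope: per doubling of length, the deviation of the 11855 non-member genes moved by -0.0705 in knockout 1 and -0.0065 in knockout 2, against 0.0075 in knockout 3 and 0.0446, 0.0106 and 0.0143 in controls 1, 2 and 3. Non-member genes of these short classes also had knockouts 1 and 2 highest, and those up to 750 bases had control 1 lowest. Up to 500 bases their medians were 0.197, 0.071 and -0.041 in knockouts 1, 2 and 3 and -0.099, -0.045 and -0.071 in the controls. From 750 to 1000 bases control 1 was not set apart, at -0.063, beside -0.064 in control 3 and -0.062 in knockout 3.

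Removal of each library's length trend lowered the members' values by an amount that depended on how the trend was fitted. The trend was a lowess of each gene's deviation on log2 length over all tested genes with a listed length, so the medians of all genes near 0 follow from the method. The members' median then was 0.02, with quartiles of -0.004 and 0.052, and 52 members lay above 0 and 26 below. The members' median per library was 0.023, 0.018 and -0.009 in the knockouts and -0.024, -0.019 and 0.013 in the controls. None of the 78 passed (limma-trend, with 0% of all genes called higher and 0.00838% lower). At an unadjusted p under 0.05 there were 5 higher and 1 lower, against 2.83% and 3.27% of all genes. The groups did not overlap for 8 members higher and 3 lower, where 5.96% and 5.28% of all genes did so. The spread between libraries also narrowed, from a median standard error of 0.083 to one of 0.041 over the members. Subtracting a curve fitted to each library's own deviations narrows that spread in itself. The standard errors after it take the trend as known. For 70 members the value itself lay within 0.1 of 0 on the log2 scale. A trend fitted without the members gave a median of 0.022 with 57 members above 0. The median was 0.054 with 73 above 0 for a straight-line trend, 0.08 with 76 above 0 without a filter on low values, and 0.071 with 76 above 0 when coding length, chosen after the data were seen, replaced listed length. With a library left out it was 0.017, 0.011 and 0.033 without knockouts 1, 2 and 3 and 0.01, 0.013 and 0.033 without controls 1, 2 and 3. None of these settings put a member past the threshold.

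**Figure D3:**
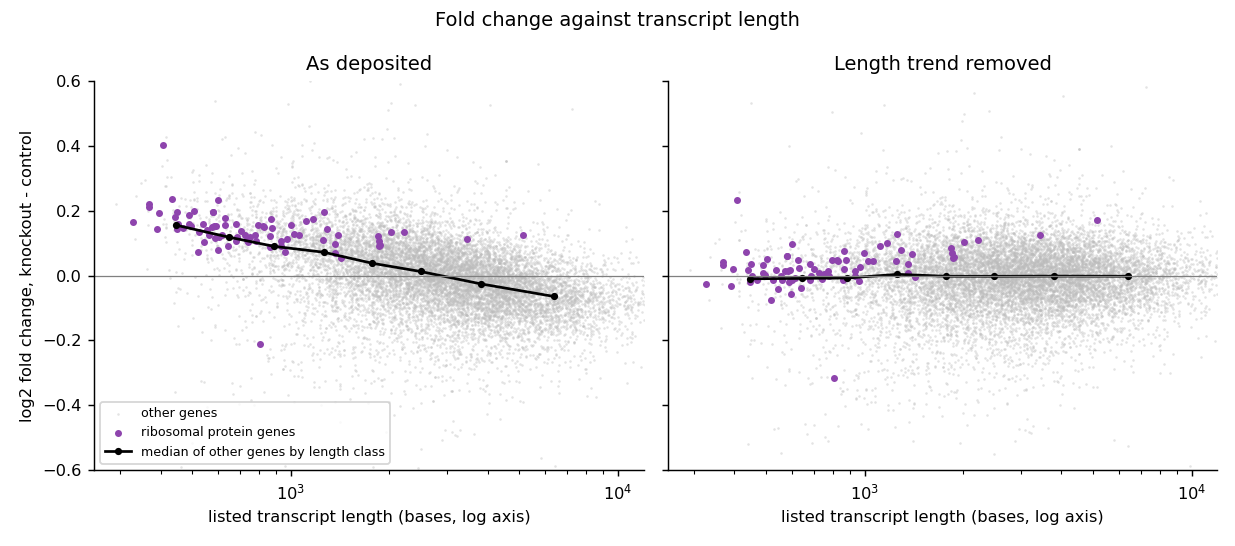
Log2 fold change of knockout over control for each gene against its listed transcript length (log axis), as deposited (left) and with the length trend removed (right). Purple points are the 78 members, grey points other genes (those beyond the axis limits are not drawn), and the black line joins medians of the other genes by length class. On the left that line runs from 0.15 in the shortest class to -0.065 in the longest, with the short members near it and the longer members above it, and on the right it lies near 0.

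Rpl36, a large subunit protein, had the highest log2 fold change and the smallest p of the family in both fits. It was at 366.87, 345.40 and 348.23 FPKM in the knockouts and at 255.95, 278.65 and 266.67 FPKM in the controls. All 3 knockout libraries, knockout 3 included, lay above all controls. The means were 354 ± 11.7 and 267 ± 11.4 FPKM (SD, n = 3 each). The log2 fold change was 0.40 with a 95% interval of 0.26 to 0.55 (SE 0.067, limma adjusted p = 0.197). With the length trend removed it was 0.23 (SE 0.053, limma adjusted p = 0.356). As deposited, its limma adjusted p ran over the alternatives from 0.0769, without knockout 3, to 0.777, without control 1. The gene lies on chromosome 17 from 56613416 to 56614243 (plus strand, GENCODE M21 for mm10), with 4 exons and a coding length of 315 bases. GENCODE names 8 pseudogene loci after Rpl36, which can share its reads.

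Other members with high values in all 3 knockouts were Rps27, Rps27l and Rpl31. Rps27 stood at 971.16, 912.95 and 874.38 FPKM in the knockouts and 772.67, 773.39 and 819.79 FPKM in the controls. The groups did not overlap, and the log2 fold change was 0.22 (SE 0.074, limma adjusted p = 0.786), or 0.04 with the length trend removed. Rps27l, whose transcript is induced by p53 in human cells, stood at 81.50, 68.59 and 66.32 FPKM against 59.85, 63.25 and 60.08 FPKM. Knockout 1 held the high value. Its log2 fold change was 0.23 (SE 0.083, limma adjusted p = 0.855), or 0.10 (SE 0.047) with the trend removed. Rpl31 was at 467.87, 437.93 and 405.12 FPKM against 385.92, 372.58 and 383.34 FPKM, and it kept groups apart with the trend removed, at 0.13 (SE 0.044, limma adjusted p = 0.733). GENCODE names 24 pseudogene loci after Rpl31, the most of any member, and the listed length of 1261 bases compares with a coding length of 375. Rpl29 also kept its groups apart, with means of 642 and 568 FPKM and a length-corrected value of 0.10 (SE 0.038, limma adjusted p = 0.784).

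Rpl39l was the 1 member lower in the knockout as deposited, and with the length trend removed it was the lowest of 26 members below 0. As deposited it stood at -0.21 on the log2 scale (SE 0.137, limma adjusted p = 0.891). The added 1 FPKM compresses so low a gene, and with a pseudocount of 0.1 the value was -0.317. Its groups overlapped, and the value of 1.20 FPKM in knockout 3 was the lowest. With the trend removed its value was -0.32 (SE 0.114, limma adjusted p = 0.762). It is also the member of lowest level, where a few reads move the value. Rps12 stood at 1490.86, 1378.12 and 1273.66 FPKM in the knockouts and 1274.51, 1321.54 and 1333.53 FPKM in the controls. Its groups overlapped as deposited (log2 fold change 0.07, SE 0.082). With the trend removed it lay at -0.07 (SE 0.037, limma adjusted p = 0.858), and Rps14 at -0.06 (SE 0.036, limma adjusted p = 0.9), with the knockouts below the controls. Rpl26, with 0.10 as deposited, was at -0.04 (SE 0.037) after removal of the trend.

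**Figure D4:**
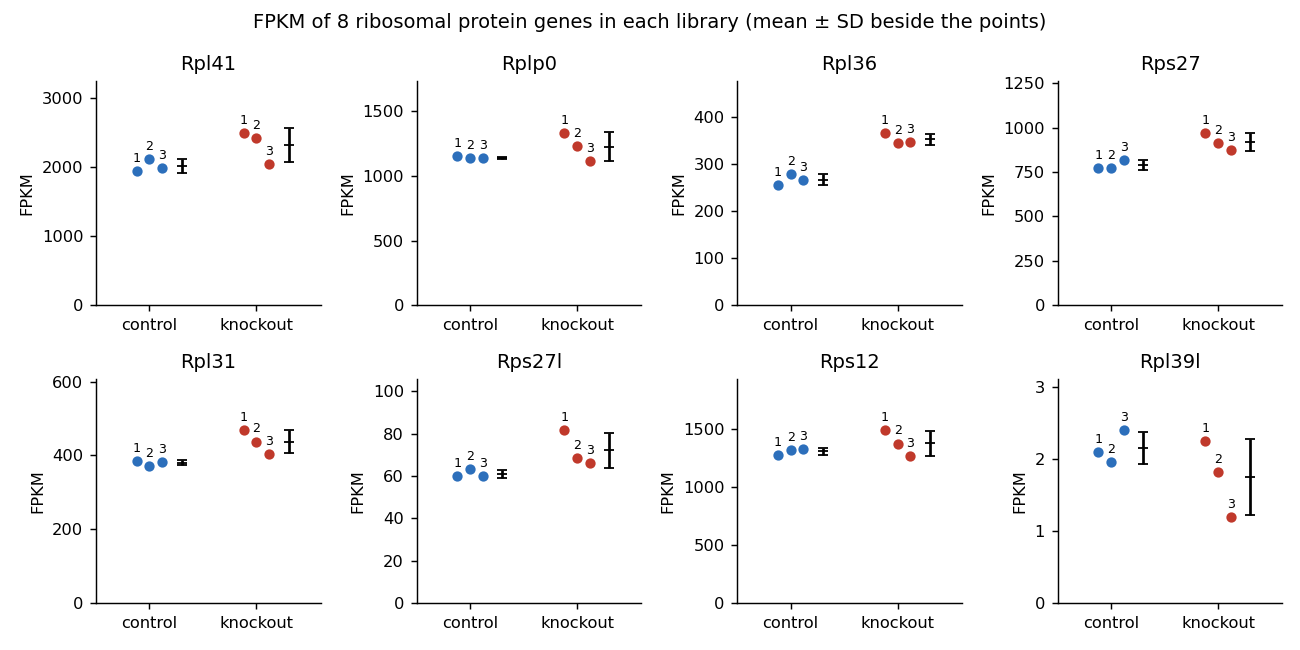
FPKM of 8 members in each control (blue) and knockout (red) library, numbered by replicate, with mean ± SD (n = 3) beside the points and axes starting at 0. For Rpl36, Rps27, Rpl31 and Rps27l the 3 knockout values lie above all controls, while for Rpl41, Rplp0 and Rps12 knockout 3 falls within or below the control values and Rpl39l overlaps.

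The stalk of the large subunit recruits translation factors and consists of Rplp0 with copies of Rplp1 and Rplp2. Rplp0 was at 1332.94, 1229.63 and 1110.94 FPKM in the knockouts and 1150.04, 1136.06 and 1137.93 FPKM in the controls, so knockout 3 was the lowest of all 6. Rplp1 was at 1799.29, 1659.07 and 1479.46 FPKM against 1398.90, 1536.93 and 1518.48 FPKM, and Rplp2 at 875.68, 823.27 and 741.13 FPKM against 701.20, 732.00 and 714.28 FPKM. Only Rplp2 of these 3 had groups that did not overlap. The log2 fold changes of Rplp0, Rplp1 and Rplp2 were 0.10 (SE 0.084), 0.15 (SE 0.092) and 0.18 (SE 0.080), in the order of falling transcript length for Rplp0 (1360 bases), Rplp1 (468 bases) and Rplp2 (441 bases). With the length trend removed they were 0.04, -0.01 and 0.02, with a lowest limma adjusted p of 0.936.

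Several members have roles outside the ribosome. Rpl5 and Rpl11, which with a small ribosomal RNA can bind and block Mdm2, stood at 403.72, 393.92 and 350.46 FPKM and at 844.08, 797.85 and 728.39 FPKM in the knockouts. Their control values were 346.85, 351.21 and 345.32 FPKM for Rpl5 and 689.59, 738.28 and 699.38 FPKM for Rpl11. Both had knockout 3 within the control range. The log2 fold changes were 0.13 (SE 0.073) and 0.15 (SE 0.078), and 0.10 (SE 0.043) and 0.02 (SE 0.036) with the trend removed, with no limma adjusted p under 0.799. Rps27a, which is made as a fusion with ubiquitin, was at 739.46, 691.14 and 617.35 FPKM against 596.09, 615.14 and 627.10 FPKM (log2 fold change 0.15, SE 0.081). Rpsa, also called the laminin receptor, was at 739.91, 681.29 and 627.07 FPKM against 646.13, 636.18 and 636.03 FPKM (0.09, SE 0.078). For Rpsa, knockout 3 was the lowest library. X-linked members were Rpl10, Rpl36a, Rpl39 and Rps4x, with a median of 0.171 as deposited and 0.041 with the trend removed. Rps4x was at 1040.15, 973.90 and 861.10 FPKM against 874.93, 887.63 and 886.03 FPKM.

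**Figure D5:**
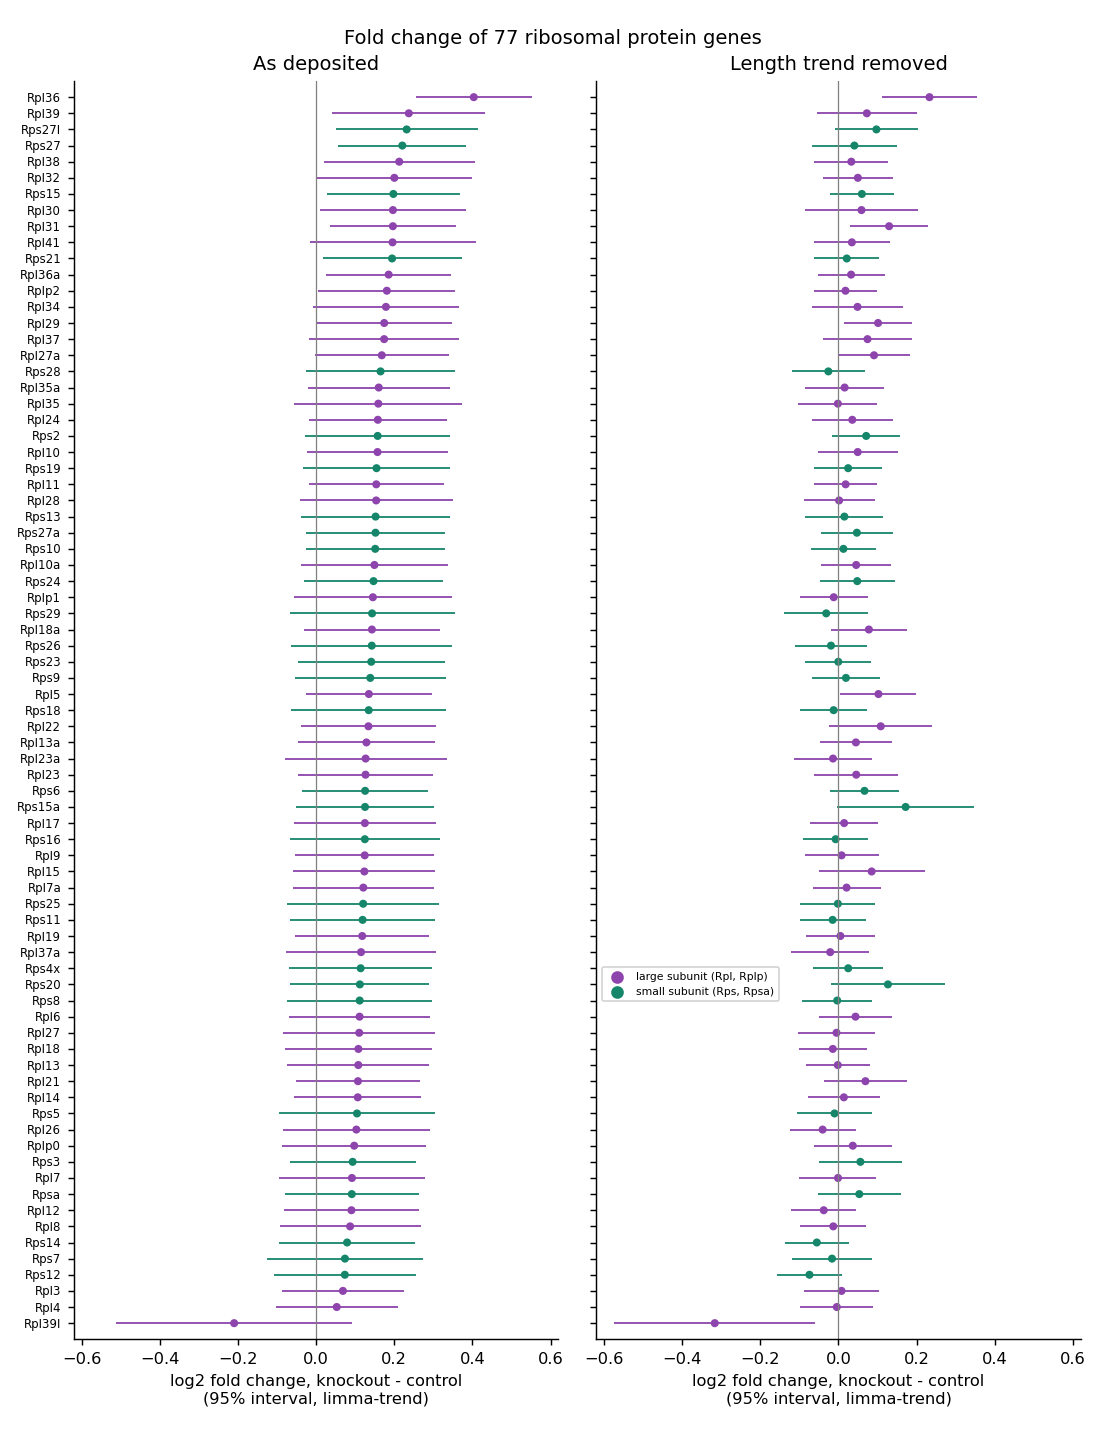
Log2 fold change of knockout over control with its 95% interval (limma-trend) for 77 of the 78 members, ordered by the value as deposited (left) and shown in the same order with the length trend removed (right). Rpl36 stands apart at 0.40 and 0.23, and Rpl39l is at -0.21 and -0.32. Most intervals include 0 in both panels.

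What remained after the correction varied with how far the listed length exceeded the coding length. The 8 members listed at 3 times their coding length or more were Rpl15, Rpl21, Rpl22, Rpl31, Rpl39l, Rpl41, Rps15a and Rps20. Their median was 0.124 as deposited, against 0.14 for the other 70, and 0.097 against 0.017 with the trend removed. Rps15a, at 58.03, 53.79 and 47.34 FPKM against 47.38, 49.98 and 47.87 FPKM, moved from 0.13 to 0.17 (SE 0.078, limma adjusted p = 0.827). Rps20 moved from 0.11 to 0.13, and Rpl22, known for binding a viral RNA, from 0.13 to 0.11. Listed length enters both this ratio and the trend that was subtracted, so the pattern follows in part from the subtraction. With coding length in the trend, 0 members were past the threshold (limma-trend). At an unadjusted p under 0.05, 12 members were then higher and 1 lower, and the share of all genes was not counted for this fit. The size of what remains thus depended on which length was used. Members with 5 or more named pseudogene loci (21 genes) had a median of 0.125 as deposited and those with none (19 genes) 0.126.

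The other genes of the ribosome and of translation gave no call. Fau, which encodes a ribosomal protein fused to a ubiquitin-like protein, and Rps3a1 and Rack1, a small subunit protein and a scaffold on the small subunit, lie outside the naming rule. Fau was at 902.89, 827.17 and 754.52 FPKM in the knockouts and 710.85, 797.52 and 760.00 FPKM in the controls, so knockout 3 lay within the control range. Rps3a1 was at 977.48, 938.72 and 801.55 FPKM against 830.29, 843.01 and 857.38 FPKM, and Rack1 at 718.30, 674.75 and 610.22 FPKM against 622.80, 624.30 and 625.98 FPKM. For both, knockout 3 was the lowest library. The log2 fold changes of Fau, Rps3a1 and Rack1 were 0.13 (SE 0.086), 0.10 (SE 0.086) and 0.09 (SE 0.077), and 0.01, 0.01 and 0.03 with the length trend removed, with no limma adjusted p under 0.891. Rpl36al, Rpl22l1, Rpl7l1 and Rps19bp1 had a median of 0.102, and -0.01 with the trend removed. Among 19 elongation factors and other messages with a pyrimidine tract, 0 passed, 17 lay above 0 and the median was 0.075, with Eef1a1 at 3109 ± 154 and 2981 ± 7.54 FPKM (SD, n = 3 each). For 25 initiation factors the median was 0.058 and for 36 ribosome biogenesis genes 0.043, with 0 past the threshold in each. With the length trend removed, the elongation, initiation and biogenesis medians were 0.029, 0.038 and 0.02, against 0.02 for the members. The RNA polymerase I list (15 tested) had a median of 0.055, and 0.05 with the trend removed. Its member Polr1d, a subunit shared with RNA polymerase III, was at 77.94, 69.89 and 62.22 FPKM against 58.27, 56.45 and 57.72 FPKM. Its groups did not overlap, and its value of 0.27 (SE 0.082) had a limma adjusted p of 0.736.

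Lists of regulators of ribosome production and of the p53 response had medians near 0, with single genes on both sides. The growth control list, with Myc, Mtor and Larp1 among 14 tested, had a median of -0.02 and a range of -0.204 to 0.129, and 6 lay above 0. The 11 tested genes of the p53 response had a median of 0.016 and a range of -0.244 to 0.119. Cdkn1a, a cell cycle inhibitor, averaged 236 ± 14.4 FPKM in knockouts against 234 ± 5.58 FPKM in controls (SD, n = 3 each). Neither list had a member past the threshold or with groups apart. The growth control and p53 lists had median lengths of 2981 and 2666 bases. With the length trend removed their medians were 0.015 and 0.014, against 0.02 for the ribosomal members.

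Families of short transcripts with other functions had values like those of the ribosomal proteins. The 77 mitochondrial ribosomal protein genes, which serve a separate ribosome, had a median of 0.108 at a median length of 1055 bases, and 74 lay above 0. The 94 tested genes named Nduf, Cox, Atp5 or Uqcr, mostly of the respiratory chain, had a median of 0.134 at a median length of 747 bases, and 86 lay above 0. With the length trend removed, their medians were 0.031 and 0.034, against 0.02 for the cytosolic ribosomal proteins. In each of these families 0 genes passed by limma-trend. At an unadjusted p under 0.05 there were 10 higher and 0 lower in the first and 20 higher and 1 lower in the second. Of all genes tested, 2.99% were higher and 2.71% lower at that p, and the share among short genes was not counted. No test set these families against each other.

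Several marker lists also set libraries apart. The summed odontoblast markers (4 of 4 present, with Col1a1, which bone cells also make, as the most abundant) were lowest in knockouts 1 and 2, at 4716.96 and 5448.56 FPKM, against 7561.63 FPKM in knockout 3 and 6281.33 to 7862.79 FPKM in the controls. Osteoclast markers (3 of 4 at 1 FPKM in 3 libraries, Oscar below it) summed to 54.93, 53.48 and 70.73 FPKM in the knockouts and 75.9 to 78.65 FPKM in the controls. Dspp, which encodes the main dentin phosphoprotein, was at 614.78, 674.65 and 853.08 FPKM in the knockouts and 764.98, 715.15 and 837.92 FPKM in the controls. No marker of either list was at 0. Dspp and Col1a1 are listed at 4440 and 5930 bases, so they fall among the long transcripts. Their log2 fold changes were -0.12 (SE 0.115) and -0.27 (SE 0.168) as deposited, and -0.09 and -0.21 with the length trend removed. Skeletal muscle markers (5 of 8 at 1 FPKM in 3 libraries) summed to 12.79, 14.21 and 72.92 FPKM in the knockouts and 68.77, 7.15 and 49.64 FPKM in the controls. Oral mucosa markers (2 of 5) summed to 183.53 FPKM in control 1, the lowest library for 45 members, and to between 9.9 and 21.15 FPKM in the other 5 libraries. Bone markers (4 of 4) ranged from 1798.61 to 2038.97 FPKM in the knockouts and from 1588.05 to 2079.09 FPKM in the controls, and erythroid markers (5 of 5) from 1654.94 to 2362.9 and from 1496.79 to 2972.68 FPKM. The part of these lists in the ribosomal protein values was not tested. Ameloblast markers ranged from 206226.18 to 244683.76 FPKM in the knockouts and from 209289.51 to 244696.31 FPKM in the controls. Immediate early genes, which respond to handling, ranged from 41.24 to 44.23 and from 43.64 to 48.85 FPKM.

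The authors' deposited table calls nearly the whole family. In it 77 of the 78 members have a positive log2 ratio with a q under 0.05, and all but Rpl39l are among them. Those ratios run from 0.05 for Rpl4 to 0.41 for Rpl36, and the largest q among them in the authors' deposited table is 6.67e-06. Of the genes tested here, 13.7% have a positive ratio and 16.0% a negative one at that q in the authors' deposited table. The sources used here do not give the test behind these q-values. The limma-trend fit to the same FPKM values, which sets each difference against the spread between libraries, had 0 of 78 members past the threshold. Of all genes tested it called 0% higher and 0.00838% lower. At an unadjusted p under 0.05 it had 13 members higher and 0 lower, against 2.99% and 2.71% of all genes.

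Transcripts of near-identical genes limit single members. Of the 78 members, 59 share their name with at least 1 pseudogene locus in GENCODE, 291 loci in all, and pseudogenes named otherwise are not counted. The table also holds rows for related loci, of which 3 are given here. Rpl31-ps12 stood at 188.26, 177.14 and 103.35 FPKM in the knockouts and 105.38, 146.12 and 154.46 FPKM in the controls, a wider spread than that of Rpl31. Rpl34-ps1 was at 16.79, 19.43 and 11.31 FPKM in the knockouts and 19.88, 25.80 and 26.35 FPKM in the controls. All 3 knockouts lay below the controls, opposite in direction to most members, with a log2 difference of -0.59 (SE 0.165, limma adjusted p = 0.66), and -0.75 with the length trend removed. Rps27rt was listed at 13.92 FPKM in control 2 and at 0 in the other 5 libraries, beside a Rps27 level of 773.39 FPKM in control 2. The sources used here do not give how the authors' counting split reads between such copies.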

How the data were processed

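Messenger RNA of 6 molar libraries was sequenced on the BGISEQ-500 platform, per the labels. The authors' deposited table gives FPKM per library, and, per the file headers, the authors' log2 ratio, p-value and q-value and the longest transcript length. Per the submitters' processing notes, Bowtie2 and mm10 were used, with versions, the FPKM tool and the authors' test not given in the sources used here. Groups and replicate numbers came from the labels.

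Genotype was the single term of the main test, limma-trend (limma 3.58.1, R 4.3.3), fitted to log2(FPKM + 1) over genes at 1 FPKM in at least 3 libraries, with Benjamini-Hochberg adjustment. The length trend was a lowess (fraction 0.3) per library. The code of the test and of the trend was run on simulated data with independent noise per gene and straight-line slopes. Genes that move together and curved trends were not simulated, so that run does not show how well either suits these libraries. Depth was estimated from steps of low values, of which 78.5% to 84.2% lay within 0.15 of a whole read (30% by chance), with 30 bases subtracted from the length. Rebuilt reads carry the error of that estimate.

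Named members were those with the smallest p per direction, the extremes of level, the stalk, Rpsa, Rps27a, Rpl5, Rpl11 and paralogs; others in the text were chosen after their values were seen. Members and lists were chosen with earlier results of these data known. Results that name 1 member and 1 related gene are not reported here. The snoRNA host list had 0 genes in the table. Symbols of 25 genes listed as dates were restored. Alternatives were a pseudocount of 0.1, filters, scaling, a replicate block, omission of each library, limma-voom and other forms of the trend. Annotation came from GENCODE M21. Python 3.11.15, numpy 2.4.6, pandas 2.3.3, scipy 1.17.1 and matplotlib 3.10.9 were used.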

Additional observations from a re-analysis of the deposited data

How the results depend on the processing

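The count of members past the threshold was 0 in both fits under every alternative run. The members' median log2 fold change as deposited lay between 0.134 and 0.145 under all alternatives that kept the 6 libraries, and between 0.075 (without knockout 1) and 0.212 (without knockout 3) with a library left out. Median-ratio scaling moved the median of all genes by less than 0.01, to 0.004. With the length trend removed, the median of 0.02 became 0.08 without a filter on low values, 0.054 with a straight-line trend and 0.071 with coding length; the cause was not tested. It lay between 0.01 and 0.033 with a library left out. Corrected values near 0 changed sign: Rplp1 from -0.01 to 0.063, 0.029 and 0.057 without a filter, with a straight line and with coding length, Rps14 to 0.01 and 0.009, and Rpl26 to 0.029 and 0.029, without a filter and with coding length. With a library left out Rplp1 lay between -0.033 and 0.001.

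With the replicate block, 0 members passed and the median stayed at 0.135, or 0.02 with the trend removed. Over all genes, 8 were called in that fit, against 1 in the main test. Deviations of same-numbered libraries correlated at -0.062, 0.17 and 0.388. Knockout 1 correlated best with control 2 (0.304) and knockout 3 with control 3. Deviations were taken from each group's own mean, so these correlations must take both signs and cannot settle whether the numbers pair the samples. Rpl36 had an adjusted p of 0.092 in the replicate block fit. With 3 libraries a group, differences the size of the members' median standard error, 0.083, could not be resolved, and much larger ones were not called either. Rpl36, at 0.40 as deposited (SE 0.067), had a limma adjusted p of 0.197 in the main test.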
